A study of Mus musculus with 12 samples.

Results

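Ccl11 (eotaxin-1) and Ccl24 (eotaxin-2) encode small secreted chemokines, and Ccr3 encodes the receptor through which both act. These 3 genes are described here, of 47069 genes in the tables. They were taken as the rows whose Ensembl identifiers map to these symbols: ENSMUSG00000020676 for Ccl11, ENSMUSG00000004814 for Ccl24 and ENSMUSG00000035448 for Ccr3. The eotaxins were chosen by their measured values, because both had large fold changes between antibody therapy and IgG in mice with 2 tumor sites. Their values in that comparison, and in every other comparison that uses the same libraries, are therefore given as a description, with no test.

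Eotaxins attract eosinophils, granulocytes that carry CCR3 at high density, and CCR3 is also found on basophils, mast cells and some T helper 2 cells. Many cell types can make CCL11, among them fibroblasts, endothelial and epithelial cells, whereas CCL24 is made mostly by macrophages and epithelial cells. The type 2 cytokines IL-4 and IL-13 raise the transcription of both ligands. Eosinophils are rare in healthy brain tissue.

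The material was B16 F1 melanoma, a pigmented mouse tumor line, grown in the brain of C57BL/6 mice and collected at day 9 after the cells were implanted. All mice carried the intracranial tumor, and all libraries come from it. The 12 libraries make up 4 groups of 3 biological replicates, namely mice that also had an extracranial tumor and received anti-PD-1 with anti-CTLA-4, mice with both tumors and IgG, mice with the intracranial tumor only and the same antibody pair, and mice with the intracranial tumor only and IgG. The antibody pair, which blocks 2 inhibitory receptors of T cells, is called therapy below. Age, sex and the site of the extracranial tumor are not given in the labels used here, and replicate numbers follow accession order, so they name a library and pair nothing. Values are raw reads per gene, CPM (reads scaled to a common library size with TMM factors) or the FPKM values deposited by the authors, which also divide by gene length.

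Library totals ran from 18427495 to 22294182 reads. The labelled tissue was checked with 7 melanoma genes, which summed to between 21470 and 28780 CPM in every library, and with lists for brain and immune cells. The libraries differed widely in these other cells. The summed level of 8 neuron genes was 165, 646 and 524 CPM in the 3 libraries of mice with both tumors and therapy, and 187, 4.25 and 300 CPM with both tumors and IgG. It was 8.79, 2.85 and 1.47 CPM with the intracranial tumor only and therapy, where Rbfox3 and Gad2 had no read in replicate 2 and Nefl none in replicate 3, and 184, 81.7 and 241 CPM with the intracranial tumor only and IgG. Replicate 2 of both tumors with IgG, at 4.25 CPM, is also the only library whose sample name ends in a different suffix. The meaning of that suffix is not given. Since the libraries are bulk samples, fewer cells of a type and less RNA per cell cannot be told apart for any gene below. The part that tissue makeup plays in the values of the eotaxin genes was not tested.

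Both ligands belong to the CC family, named for a pair of adjacent cysteines near the start of the mature protein. The stretch of coding sequence around that pair is shown for both eotaxins and for Ccl8, a close relative that is a neighbor of Ccl11 in the genome, to show how much the members share. Each is 60 bases of the coding sequence, read 5′ to 3′ on the coding strand from GRCm38, with the 2 cysteine codons in capitals.
Ccl11, coding bases 67 to 126 of 294: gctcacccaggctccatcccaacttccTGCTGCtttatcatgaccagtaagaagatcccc
Ccl24, coding bases 70 to 129 of 360: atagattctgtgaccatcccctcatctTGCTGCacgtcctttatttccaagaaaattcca
Ccl8, coding bases 67 to 126 of 294: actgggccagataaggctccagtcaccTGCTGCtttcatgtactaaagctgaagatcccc

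Over their whole aligned coding sequences Ccl11 and Ccl24 were identical at 47.2% of positions, and the longest run of bases they shared was 11. Ccl11 was nearer to its neighbor Ccl7, at 66.3% with a longest shared run of 11 bases, than to Ccl24. Its longest run shared with any of the chemokines compared was 21 bases, with Ccl12. Ccr3 shared 67.0% of positions and a run of 47 bases with Ccr1, a receptor gene of the same cluster, so a read that lies wholly inside that run could belong to either.

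In GRCm38, Ccl11 lies at chr11:82057823-82062955 on the plus strand, between Ccl7 and Ccl12 in a cluster of monocyte-attracting chemokine genes. Ccl24 lies on another chromosome, at chr5:135569937-135573049 on the minus strand, next to Ccl26, the gene named after the remaining human eotaxin. Ccr3 lies at chr9:124021972-124031689 on the plus strand, among other chemokine receptor genes. All 3 are annotated as protein-coding, and no other annotated gene overlaps any of them.

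Ccl11 reads were most numerous in mice with both tumors and therapy. The 3 libraries of that group had 80, 52 and 28 reads, which the authors give as 3.50, 2.43 and 1.19 FPKM, against 5, 3 and 3 reads with both tumors and IgG (0.224, 0.134 and 0.143 FPKM). With the intracranial tumor only, Ccl11 had 1 read in each of the 3 therapy libraries (0.050, 0.0486 and 0.0415 FPKM), against 14, 6 and 5 reads in the IgG libraries (0.673, 0.289 and 0.251 FPKM). The groups with both tumors did not overlap each other, nor did the groups with the intracranial tumor only, and the antibody pair went with more Ccl11 reads in the first case and fewer in the second. Here and for every gene below, the share of all genes whose groups did not overlap was not counted.

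Ranked by mean level, Ccl11 was highest in both tumors with therapy (2.37 ± 1.16 FPKM), followed by intracranial only with IgG (0.404 ± 0.234 FPKM), both tumors with IgG (0.167 ± 0.0494 FPKM) and intracranial only with therapy (0.0467 ± 0.00459 FPKM; SD, n = 3 each). Neighbors in that order did not overlap in FPKM, although both tumors with IgG (at most 0.224 FPKM) and intracranial only with IgG (at least 0.251 FPKM) each had a library with 5 reads.

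Ccl24 was uneven in the group where it was high. It had 517, 73 and 14 reads in mice with both tumors and therapy (26.4, 3.98 and 0.692 FPKM), against 6, 0 and 2 reads with both tumors and IgG (0.314, 0 and 0.111 FPKM). With the intracranial tumor only it had 1, 6 and 1 reads under therapy (0.0583, 0.340 and 0.0483 FPKM), against 2, 7 and 1 reads under IgG (0.112, 0.393 and 0.0585 FPKM). All 3 libraries of both tumors with therapy lay above the 9 others, but replicate 1 alone held 85.6% of that group's Ccl24 reads.

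The mean level of Ccl24 was 10.4 ± 14.0 FPKM in both tumors with therapy (SD, n = 3), an SD larger than the mean. The means of the remaining groups, 0.142 ± 0.159 FPKM with both tumors and IgG, 0.149 ± 0.166 with the intracranial tumor only and therapy and 0.188 ± 0.18 with the intracranial tumor only and IgG (SD, n = 3 each), did not differ beyond their spread. Per length, Ccl24 exceeded Ccl11 in replicates 1 and 2 of both tumors with therapy and lay below it in replicate 3.

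Ccr3 had few reads in most libraries. It had 28, 12 and 2 reads in mice with both tumors and therapy (0.405, 0.185 and 0.0280 FPKM), against 2, 3 and 2 reads with both tumors and IgG (0.0296, 0.0444 and 0.0316 FPKM), and these groups overlapped. With the intracranial tumor only it had 0 reads in all 3 therapy libraries, against 1, 3 and 0 reads in the IgG libraries. Of the 12 libraries, 8 held any Ccr3 read, compared with 12 for Ccl11 and 11 for Ccl24.

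**Figure D1:**
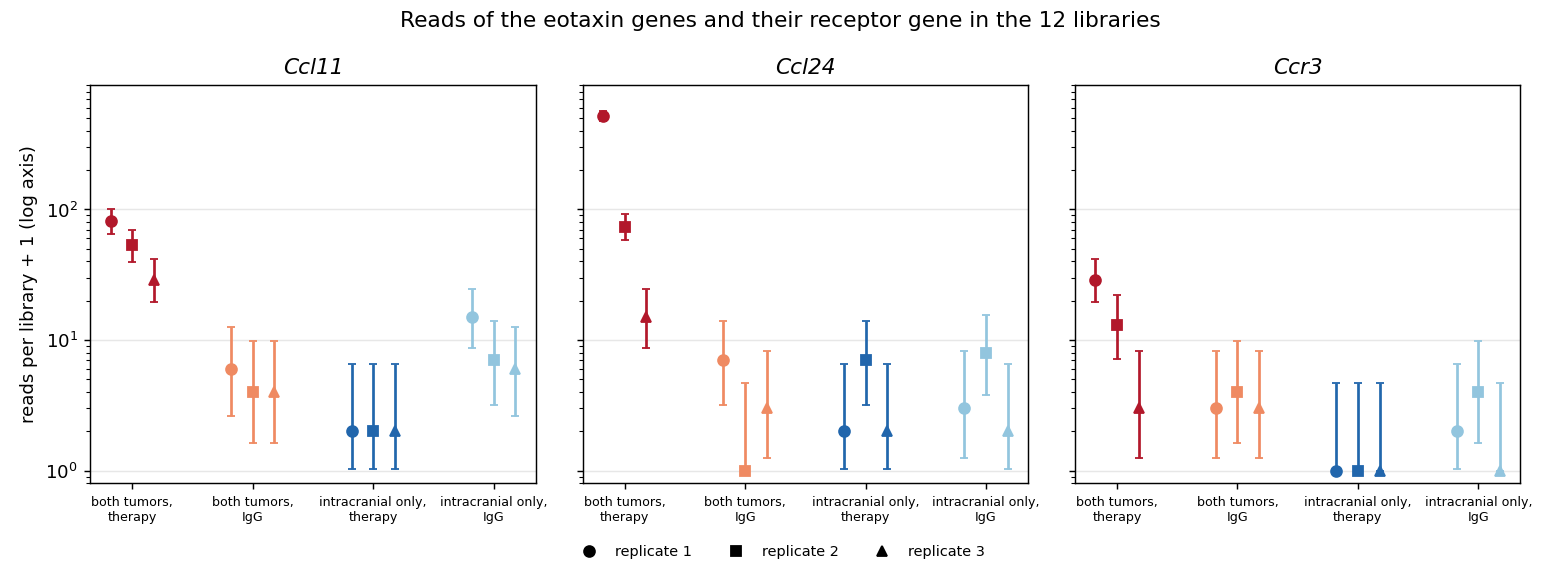
Reads of Ccl11, Ccl24 and Ccr3 per library, plus 1, on a log axis, with a 95% Poisson interval that covers counting error only. Each point is 1 library and the marker shape gives its replicate number. The 3 libraries of both tumors with therapy lie above all others for Ccl11 (28 to 80 reads) and Ccl24 (14 to 517 reads), while for Ccr3 replicate 3, with 2 reads, lies among the rest.

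Summed over libraries and set against library totals, the 160 Ccl11 reads of both tumors with therapy against 11 with both tumors and IgG gave a ratio of 14.1 (95% interval 7.65 to 28.7). The 604 Ccl24 reads against 8 gave a ratio of 73.0 (36.8 to 170). The 42 Ccr3 reads against 7 gave a ratio of 5.80 (2.58 to 15.3). These intervals cover counting error only, and the spread between libraries is far wider for Ccl24.

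In the fit across all genes (edgeR's quasi-likelihood model of the 4 group means), the log2 fold change of therapy against IgG with both tumors was 3.75 ± 0.53 for Ccl11 and 6.08 ± 1.44 for Ccl24 (SE). These were the 18th and the 2nd highest of the 15925 genes fitted, a rank that the choice of the genes already used. Both genes passed the filter on low counts only through the group in which they were high. Ccr3 did not pass it, and its mean log2 CPM differed by 1.41. Without replicate 1 of both tumors with therapy, the library with the most reads of all 3 genes, the log2 fold change was 3.37 for Ccl11 and 3.97 for Ccl24, and the difference for Ccr3 was 0.77.

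Of the 15925 genes tested in this comparison, 5.39% passed an adjusted p of 0.05, 198 of them higher with therapy (1.24% of those tested) and 660 lower, and the smallest adjusted p was 0.0498, so every call lay at the threshold. The genes described in the next paragraphs belong to lists for the eotaxin pathway and for the cells that make or answer to eotaxins.

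The other chemokines that bind CCR3 in humans were followed with a list of 5 genes, of which 4 could be tested. None passed the test for therapy against IgG with both tumors, and their median log2 fold change was 2.19 against 0.02 over all genes tested. Ccl26 had no read in any library. Ccl5, a T cell and monocyte attractant, had 331, 1863 and 1087 reads in both tumors with therapy and 141, 31 and 185 with both tumors and IgG (log2 fold change 3.17 ± 1.04, edgeR adjusted p = 0.0752). Ccl8 had 512, 1121 and 465 reads against 113, 13 and 64 (3.44 ± 1.65, edgeR adjusted p = 0.169), and Ccl7 had 192, 313 and 269 against 182, 91 and 49 (1.22 ± 1.02, edgeR adjusted p = 0.396). Ccl28, a mucosal chemokine, differed by 0.14 ± 0.59 (edgeR adjusted p = 0.878).

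The genes that flank Ccl11 on the chromosome encode monocyte attractants. Of these 5 genes, 4 could be tested and none was called, with a median log2 fold change of 1.29 for therapy against IgG with both tumors. Ccl2, the main monocyte attractant, had 220, 385 and 444 reads with both tumors and therapy and 282, 95 and 63 with both tumors and IgG, so these groups overlapped. With the intracranial tumor only, Ccl2 was highest in replicate 2 of the IgG group, at 643 reads, the library in which Ccl11 had 6. Whether the fold change of Ccl11 differs from that of its neighbors was not tested.

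Genes of the eosinophil itself were scarce. Of 10 eosinophil genes, 9 did not pass the filter on low counts. Prg3 and Ear1, which encode granule proteins, had no read in any library. Epx, which encodes eosinophil peroxidase, had 3, 5 and 0 reads in both tumors with therapy, against 4, 3 and 4 with both tumors and IgG. Prg2, the gene of the major basic protein, had 12, 5 and 0 reads against 0, 0 and 3. Ear2, a ribonuclease gene that monocytes also express, had 27, 9 and 10 reads against 10, 0 and 4. Il5ra, which encodes a chain of the interleukin-5 receptor, had 5, 5 and 6 reads against 5, 1 and 1.

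Siglecf was the only eosinophil gene to pass the filter, and it did so only through both tumors with therapy. Its fold changes and p-values, here and below, are therefore a description. It encodes a sialic acid receptor of mouse eosinophils that alveolar macrophages also carry. It had 54, 101 and 68 reads in both tumors with therapy, against 7, 0 and 14 with both tumors and IgG, and these groups did not overlap. Its log2 fold change was 3.34 ± 1.01 and did not pass the test (edgeR adjusted p = 0.0635). Within the group its highest library was replicate 2, whereas that of Ccl11, Ccl24 and Ccr3 was replicate 1. The eosinophil list was mixed in this. Ear2 was highest in replicate 1, with 57.5% of its summed CPM, as were Prg2, Cebpe (17, 1 and 2 reads) and Ear6 (3, 1 and 1 reads). Epx and Gata1 (3, 6 and 0 reads) were highest in replicate 2 and Il5ra in replicate 3, all with few reads. The summed level of the 10 genes was 5.64, 6.62 and 4.00 CPM in both tumors with therapy, against 1.34, 0.253 and 1.64 CPM with both tumors and IgG. Siglecf alone gave 2.455, 5.023 and 3.124 CPM of these sums with therapy, against 0.335, 0 and 0.694 CPM with IgG.

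Basophils and mast cells, which also carry CCR3, were followed with 10 genes. Fcer1a had no read in any library, and Hdc, the histidine decarboxylase gene, was the only one to pass the filter (log2 fold change 1.60 ± 0.99, edgeR adjusted p = 0.263). Their summed level was 2.32, 4.82 and 3.22 CPM in both tumors with therapy, against 0.814, 0.455 and 1.59 CPM with both tumors and IgG.

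Among type 2 cytokines, which raise eotaxin transcription, 2 of 9 genes could be tested and none was called. Il4 had a log2 fold change of -0.02 ± 0.30 for therapy against IgG with both tumors (edgeR adjusted p = 0.964). Il33, an alarmin released by stressed tissue cells, had 261, 139 and 259 reads against 82, 77 and 168 (0.93 ± 0.40, edgeR adjusted p = 0.132). Il13, named here after its values were seen, had 5, 10 and 1 reads in both tumors with therapy, against 2, 0 and 0 with both tumors and IgG, too few for the test.

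Of 9 type 2 receptor and signalling genes, 7 were tested and 2 rose with therapy in mice that had both tumors. Il1rl1, which encodes the IL-33 receptor, had 35, 30 and 21 reads against 2, 5 and 7 (log2 fold change 2.51 ± 0.53, edgeR adjusted p = 0.0498). Crlf2, a subunit of the receptor for thymic stromal lymphopoietin, had 489, 850 and 739 reads against 261, 177 and 294 (1.45 ± 0.33, edgeR adjusted p = 0.0498). The groups did not overlap for either gene. Il1rl1 passed the filter on low counts only through both tumors with therapy, so its p-values, here and below, are a description. Both calls sat at the threshold: the call of Il1rl1 was made under 5 of 17 alternative settings and that of Crlf2 under 6 of 18, with adjusted p-values up to 0.187 for each. With 1 library left out, both were called only without replicate 1 of both tumors with therapy, replicate 3 of both tumors with IgG or replicate 2 of intracranial only with IgG. Gata3, a T helper 2 transcription factor gene, had a log2 fold change of 2.30 ± 0.62 (edgeR adjusted p = 0.0527).

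Genes of alternatively activated macrophages, cells known as a source of CCL24, were followed with 11 genes, of which 9 were tested. None passed the test for therapy against IgG with both tumors, 8 of the 9 had a log2 fold change above 0, and the median was 1.49. Arg1, which encodes arginase, had 2481, 2359 and 1174 reads in both tumors with therapy, against 255, 210 and 41 with both tumors and IgG (3.51 ± 1.09, edgeR adjusted p = 0.067). These groups did not overlap. Chil3, a chitinase-like protein gene, had 593, 408 and 43 reads against 53, 9 and 19 (3.64 ± 1.41, edgeR adjusted p = 0.109). Mrc1, the mannose receptor gene that brain border macrophages also express, differed by 0.87 ± 0.67 (edgeR adjusted p = 0.355).

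**Figure D2:**
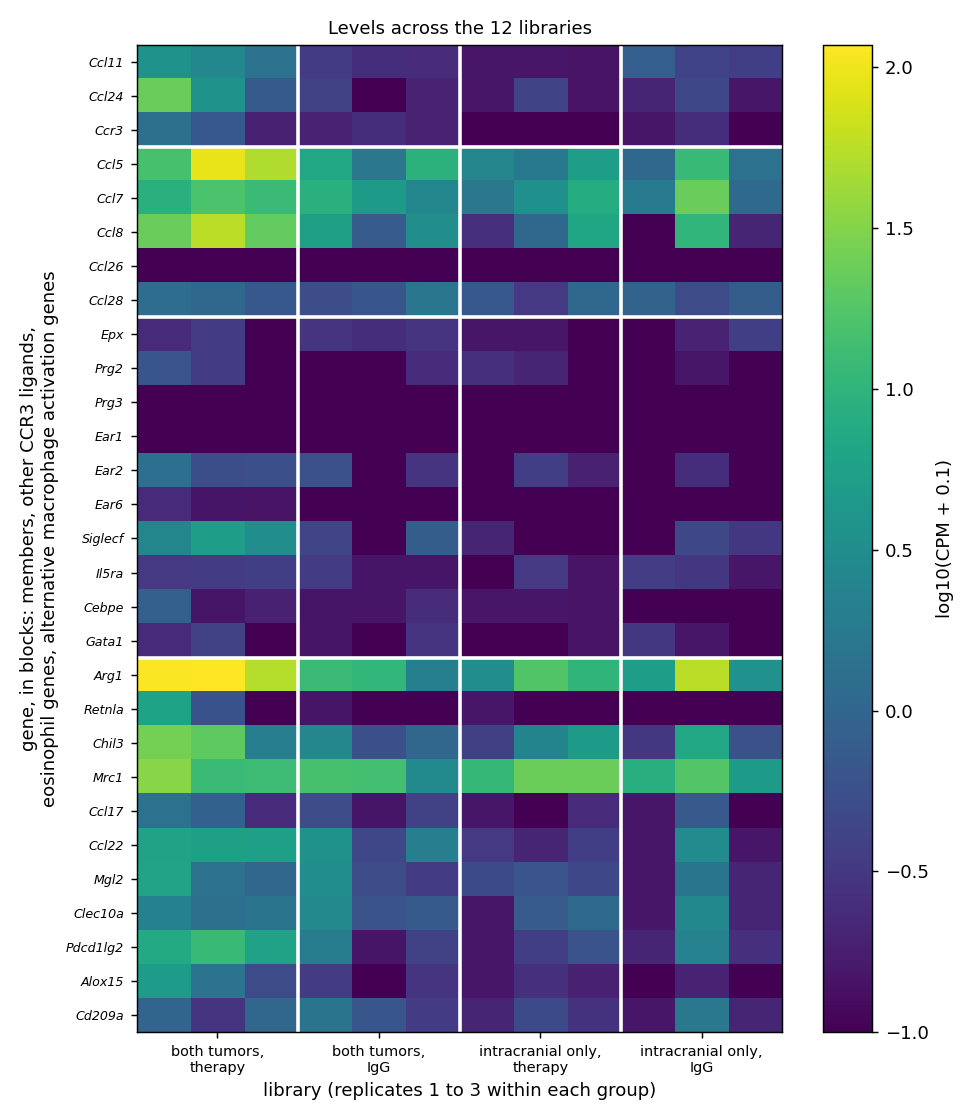
Levels of the 3 described genes, the other CCR3 ligands, eosinophil genes and alternatively activated macrophage genes in the 12 libraries, as log10 of CPM + 0.1. Columns are replicates 1 to 3 of each group, from both tumors with therapy on the left to intracranial only with IgG on the right. Ccl11 and Ccl24 are highest in the first 3 columns, Prg3 and Ear1 are at 0 throughout, and Ccl5, Ccl7 and Ccl8 also have a high column in replicate 2 of intracranial only with IgG.

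The libraries of both tumors with therapy differed from each other in a similar way for all 3 described genes. Of the summed CPM of the 3 libraries, replicate 1 held 48.4% for Ccl11, 84.6% for Ccl24 and 64.9% for Ccr3, replicate 2 held 34.4%, 13.1% and 30.4% for the same genes, and replicate 3 held 17.1%, 2.32% and 4.68%. Of the 11 alternatively activated macrophage genes, 8 were also highest in replicate 1, and 6 were highest in replicate 1 and lowest in replicate 3. Among the 4 other CCR3 ligands with at least 40 reads in the group, 1 was highest in replicate 1. By the same limit of reads it was 1 of 2 eosinophil genes, 1 of 7 type 2 receptor and signalling genes and 0 of 2 further neighbors of Ccl11. The share of all genes with this order was not counted.

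Single genes with this split were picked after their values were seen. Retnla, a resistin-like gene induced by IL-4 in macrophages, had 92.2% of its level in replicate 1 and no read in replicate 3, with 130, 10 and 0 reads. Alox15, a lipoxygenase gene of alternatively activated macrophages and eosinophils, had 72.7% in replicate 1 and 106, 28 and 9 reads. Mgl2, a macrophage lectin gene, had 73.2% in replicate 1. Ccl5 ran the other way, with 9.55% in replicate 1 and 58.8% in replicate 2.

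Other lists divided the same 3 libraries differently. Replicate 1 had the lowest summed level of 12 T cell genes, at 67.6 CPM against 135 and 137 CPM in replicates 2 and 3, and the lowest neuron level. It had the lowest summed level of 12 interferon gamma response genes as well, at 2421 CPM against 8767 and 6019 CPM. The summed level of 11 fibroblast and pericyte genes was 816, 768 and 125 CPM in replicates 1, 2 and 3, lowest in the library with the lowest eotaxin reads. In replicates 1 and 2 most of that sum came from the collagen genes Col1a1, Col1a2 and Col3a1, named after their values were seen. Other genes of the list differed: Rgs5 was lowest in replicate 3 (77.8, 46.2 and 43.1 CPM) and Pdgfra highest there (12.8, 10.8 and 17.4 CPM). The part of any of these cells in the split was not tested, and with 3 libraries it is a description.

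**Figure D3:**
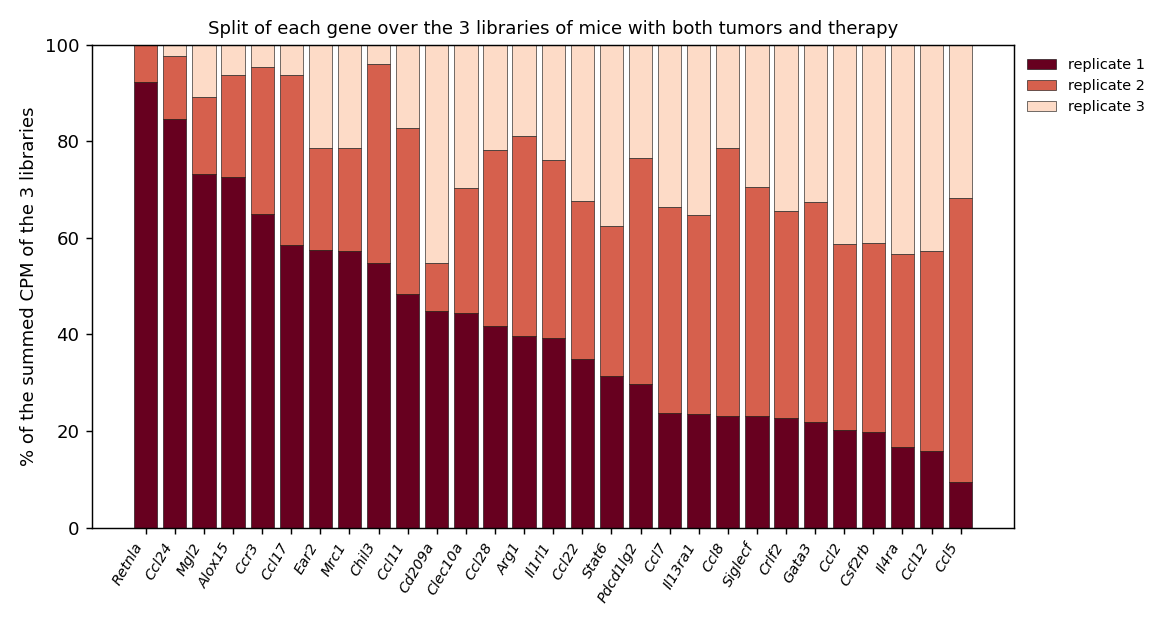
Share of each gene's summed CPM held by each of the 3 libraries of both tumors with therapy, in percent, for the described genes and for list genes with at least 40 reads in the group. Genes run from the highest to the lowest share in replicate 1. Ccl24 (84.6% in replicate 1) stands beside Retnla (92.2%) and Mgl2 (73.2%) at the left, and Ccl5 (9.55%) stands at the right end.

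The libraries of mice with the intracranial tumor alone took no part in choosing the genes. In those groups by themselves none of the 3 genes had enough reads to pass the filter, so the fitted fold changes below are a description, and an exact permutation test of log2 CPM, which cannot go below p = 0.1 with 3 against 3 libraries, is the one test given. Ccl11 had 3 reads in all under therapy and 25 under IgG, a ratio of 0.114 (95% interval 0.0220 to 0.374, counting error only). Its fitted log2 fold change was -2.94 ± 0.66. The 3 therapy libraries lay below the 3 IgG libraries, and the exact two-sided permutation p was 0.1.

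No gene was called in this comparison, 0% of the 15925 tested, and the smallest adjusted p was 0.134, while 2151 genes had an unadjusted p under 0.05 and DESeq2 called 1038. The lower Ccl11 reads under therapy stood beside the lower neuron levels given above, beside a summed level of 8 microglia genes of 55.1, 49.1 and 45.1 CPM under therapy against 69.6, 103 and 78.4 CPM under IgG, and beside 10 endothelial genes at 93.5, 131 and 96.7 CPM against 135, 150 and 163 CPM. Of the microglia genes, Siglech had no read in replicate 1 and Gpr34 none in replicate 3 of the therapy group, and all 10 endothelial genes had reads in every library. Fibroblast and pericyte genes, at 703, 209 and 298 CPM under therapy against 158, 257 and 137 CPM under IgG, did not share that direction. The part of these cells in the Ccl11 reads was not tested.

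Ccl24 had 8 reads in all under therapy and 10 under IgG, a ratio of 0.760 (0.261 to 2.14), with an exact permutation p of 0.6. Its fitted log2 fold change was -0.30 ± 1.54, and its sign turned without replicate 2 of the IgG group (0.77), replicate 1 of the therapy group (0.05) or replicate 3 of the therapy group (0.12). For Ccr3, with 0 reads under therapy and 4 under IgG, both totals lie near the limit of 3 reads that a count of 0 allows, and the exact permutation p was 0.4.

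Among list genes, none was called between therapy and IgG where only the intracranial tumor was present. The 4 tested CCR3 ligands had a median log2 fold change of -0.56 against -0.03 over all genes. Arg1 differed by -1.12 ± 1.01 (edgeR adjusted p = 0.692) and Ccl5 by -0.66 ± 1.00 (edgeR adjusted p = 0.818). Siglecf had 2, 0 and 0 reads under therapy and 0, 7 and 4 under IgG.

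Under therapy, mice with both tumors were compared with mice with the intracranial tumor only. The 160 Ccl11 reads against 3 gave a ratio of 50.9 (17.1 to 249), and its log2 fold change was 5.43 ± 0.62 (SE). The 604 Ccl24 reads against 8 gave a ratio of 72.0 (36.3 to 168), with a log2 fold change of 5.98 ± 1.43. Ccr3, with 42 reads against 0, was at least 13.4-fold higher, reckoned against 3 reads over the group without any. The groups did not overlap in reads for any of the 3 genes. The share of all genes without overlap was not counted, and the both-tumor therapy libraries took part in choosing the eotaxins. In this comparison 45.4% of the 15925 genes passed the threshold, 3886 higher (24.4% of those tested) and 3345 lower, and all 8 neuron genes were called higher.

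Against that background, with 24.4% of all genes tested called higher, 5 of 7 tested type 2 receptor and signalling genes rose in mice with both tumors. Il1rl1 had 35, 30 and 21 reads against 3, 3 and 1 (log2 fold change 3.40 ± 0.58, edgeR adjusted p = 0.00455) and Crlf2 had 489, 850 and 739 against 136, 132 and 174 (2.11 ± 0.34, edgeR adjusted p = 0.00455). Gata3 rose by 2.09 ± 0.61 (edgeR adjusted p = 0.0189) and Il4ra, the shared receptor chain for IL-4 and IL-13, by 2.2 ± 0.67 (edgeR adjusted p = 0.0214). The calls of Il1rl1 and Crlf2 were made under all 18 alternative settings, but Il1rl1 passed the filter only through both tumors with therapy. Those of Gata3 (adjusted p up to 0.0728) and Il4ra (up to 0.0638) were lost without replicate 1 or 2 of intracranial only with therapy or replicate 2 of both tumors with therapy, and that of Il4ra also without replicate 3 of the last group.

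Siglecf, with 54, 101 and 68 reads against 2, 0 and 0, rose by 6.43 ± 1.33 (edgeR adjusted p = 0.00503), a call made under all 18 alternatives. This call is a description, because Siglecf passed the filter only through both tumors with therapy. Of the CCR3 ligands, 1 of 4 rose, beside 24.4% of all genes tested. This was Ccl5, with 331, 1863 and 1087 reads against 43, 30 and 108 (4.12 ± 1.09, edgeR adjusted p = 0.0125). Ccl8 had 512, 1121 and 465 reads against 3, 18 and 139 (3.71 ± 1.67, edgeR adjusted p = 0.0912).

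Of 5 genes for other proteins that bind or cut eotaxins, 2 rose, beside 24.4% of all genes tested. Ackr1, whose product is a scavenging chemokine receptor of venules and red cells that binds CCL11 in humans, had 98, 170 and 236 reads against 1, 9 and 3 (5.09 ± 1.11, edgeR adjusted p = 0.00574). Dpp4, a peptidase that trims the start of CCL11, rose by 2.39 ± 0.74 (edgeR adjusted p = 0.0234). The Dpp4 call was lost without replicate 1 or 3 of intracranial only with therapy or replicate 2 or 3 of both tumors with therapy (adjusted p up to 0.0714). Cxcr3, whose human product can also bind CCL11, differed by -0.55 ± 0.29 (edgeR adjusted p = 0.146).

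Of 7 tested receptor genes that lie near Ccr3, 1 rose, beside 24.4% of all genes tested. This was Cxcr6, the receptor of CXCL16 on T cells, which rose by 4.26 ± 1.31 (edgeR adjusted p = 0.0231). Ccr1 and Ccr2, the nearest genes on either side that could be tested, differed by 1.54 ± 1.09 and 1.62 ± 1.28 (edgeR adjusted p = 0.268 and 0.318). Of the 9 tested alternatively activated macrophage genes, 3 rose, beside 24.4% of all genes tested. These were Pdcd1lg2 by 4.84 ± 1.33 (edgeR adjusted p = 0.0141), Ccl22 by 4.71 ± 1.34 (edgeR adjusted p = 0.0167) and Arg1 by 3.23 ± 1.08 (edgeR adjusted p = 0.0318). Pdcd1lg2 passed the filter only through both tumors with therapy, so its p-values are a description. The Cxcr6 call was lost without replicate 1 or 2 of intracranial only with therapy or replicate 2 or 3 of both tumors with therapy (adjusted p up to 0.0768). The Arg1 call was lost without any 1 of the 3 libraries of intracranial only with therapy, or replicate 1 or 2 of both tumors with therapy (up to 0.0951). The Ccl22 call was lost without replicate 1 or 2 of intracranial only with therapy (up to 0.0607), and the Pdcd1lg2 call without replicate 1 (0.0502).

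Of 9 tested genes for inflammatory signals that can induce eotaxins, 5 rose, among them the cytokine genes Tnf by 3.44 ± 1.18 (edgeR adjusted p = 0.0359), Il1b by 3.32 ± 1.15 (edgeR adjusted p = 0.0372) and Osm by 2.26 ± 0.79 (edgeR adjusted p = 0.0388), and Nfkbia, the inhibitor and target of NF-kappa-B, by 1.54 ± 0.34 (edgeR adjusted p = 0.0059). The Nfkbia call was made under all 18 alternatives, whereas those of Tnf, Il1b and Osm were each lost without replicate 1 of intracranial only with therapy, replicate 2 or 3 of both tumors with therapy and some other libraries (adjusted p up to 0.11, 0.113 and 0.119). Of 12 interferon gamma response genes none was called, although all 12 had a log2 fold change above 0 and the median was 2.79. Of 11 fibroblast and pericyte genes 2 rose, of 10 endothelial genes 5 rose and 1 fell, and of 12 T cell genes 9 rose. All counts in this paragraph stand beside 24.4% of all genes tested that were called higher.

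Under IgG, mice with both tumors were compared with mice that had the intracranial tumor alone, and the groups overlapped for Ccl24 and Ccr3. Ccl11 had 5, 3 and 3 reads with both tumors against 14, 6 and 5 with the intracranial tumor only, a ratio of 0.413 (0.183 to 0.869) and a log2 fold change of -1.25 ± 0.55, and met at 5 reads without overlapping in FPKM. The log2 fold change of Ccl24 was -0.40 ± 1.54. Ccr3 had 7 reads against 4, a ratio of 1.64 (0.417 to 7.64). Of the 15925 genes, 0% passed the test, with 188 at an unadjusted p under 0.05, and DESeq2 called 0 as well.

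**Figure D4:**
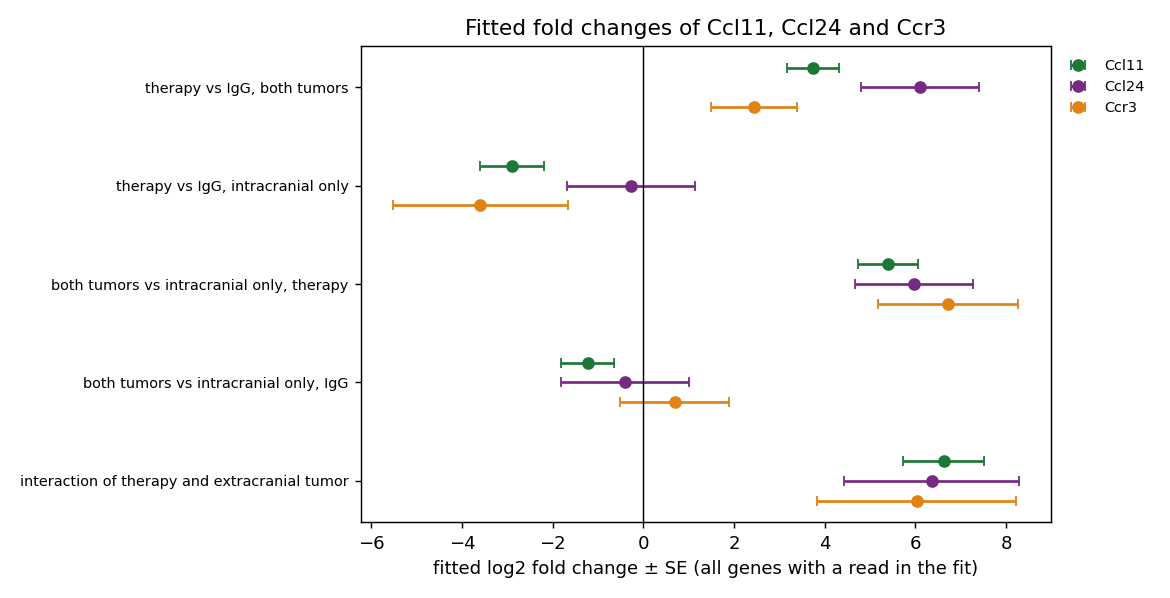
Log2 fold changes of Ccl11, Ccl24 and Ccr3 with their SE in the 5 comparisons, from an edgeR fit that includes all genes with a read so that Ccr3 has a value. The values of Ccr3 against intracranial only with therapy, where it had 0 reads, depend on the fit's prior and are no bound. Ccl11 lies right of 0 for therapy with both tumors and left of 0 for therapy with the intracranial tumor only.

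The difference between both therapy effects, the interaction, was 6.69 ± 0.84 for Ccl11 and 6.39 ± 2.11 for Ccl24 on the log2 scale, given as a description because it uses the libraries that chose the genes. For Ccl11 every therapy library lay above every IgG library with both tumors and below every IgG library with the intracranial tumor only. The interaction was called for 22% of the 15925 genes, and for 12.1% with a positive sign. Genes of brain cells took part widely: all 8 neuron genes, 7 of 8 microglia, 7 of 8 oligodendrocyte and 4 of 8 astrocyte genes were called, as were 4 of 10 endothelial genes. It was called for 1 of 1 tested eosinophil genes, 1 of 5 genes for proteins that bind or cut eotaxins and 1 of 7 type 2 receptor and signalling genes. Of the alternatively activated macrophage genes it was called for 1 of 9, and of the receptor genes near Ccr3 for 0 of 7. The genes called were Siglecf (5.61 ± 1.81, edgeR adjusted p = 0.049), Ackr1 (5.21 ± 1.41, edgeR adjusted p = 0.0335), Crlf2 (2.19 ± 0.47, edgeR adjusted p = 0.0321) and Arg1 (4.63 ± 1.48, edgeR adjusted p = 0.0475). The call of Siglecf is a description, because the gene passed the filter only through both tumors with therapy. The first 3 calls were made under 9 of 17 alternatives and that of Arg1 under 4 of 17. With 1 library left out, the first 3 were kept without replicate 1 of intracranial only with IgG, replicate 2 or 3 of both tumors with IgG or replicate 1 of both tumors with therapy, and lost without any of the 8 others (adjusted p up to 0.155, for Siglecf). The interaction of Ccl5 was not called (3.83 ± 1.43, edgeR adjusted p = 0.0738).

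Of the 12 libraries, 3 picked for their like levels of interferon response genes are set side by side here as a description. The 12 interferon gamma response genes summed to 2421 CPM in replicate 1 of both tumors with therapy, against 2159 CPM in replicate 3 of intracranial only with therapy and 3113 CPM in replicate 2 of intracranial only with IgG. The first of these libraries held 80 reads of Ccl11, 517 of Ccl24 and 28 of Ccr3. Replicate 3 of intracranial only with therapy held 1 read of Ccl11, 1 of Ccl24 and 0 of Ccr3, and replicate 2 of intracranial only with IgG held 6, 7 and 3 reads of the same genes. These libraries were not alike in other immune lists: T cell genes summed to 67.6 CPM in the first, against 18.6 and 31.7 CPM in the other two, and eosinophil genes to 5.64 CPM against 0.230 and 0.929 CPM. Of the eosinophil sums, Siglecf alone gave 2.455 CPM against 0 and 0.3613 CPM. The alternatively activated macrophage genes summed to 207 CPM in the first library, against 41.0 and 92.7 CPM, and the neuron genes to 165 CPM against 1.47 and 81.7 CPM. The library with 92.7 CPM, replicate 2 of intracranial only with IgG, had 1104 Arg1 reads. In replicate 3 of both tumors with therapy, which held 28 reads of Ccl11 and 14 of Ccl24, the macrophage genes summed to 83.3 CPM. The libraries of both tumors with therapy took part in choosing the genes. The part of interferon signals or of macrophages in the eotaxin reads was not tested.

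**Figure D5:**
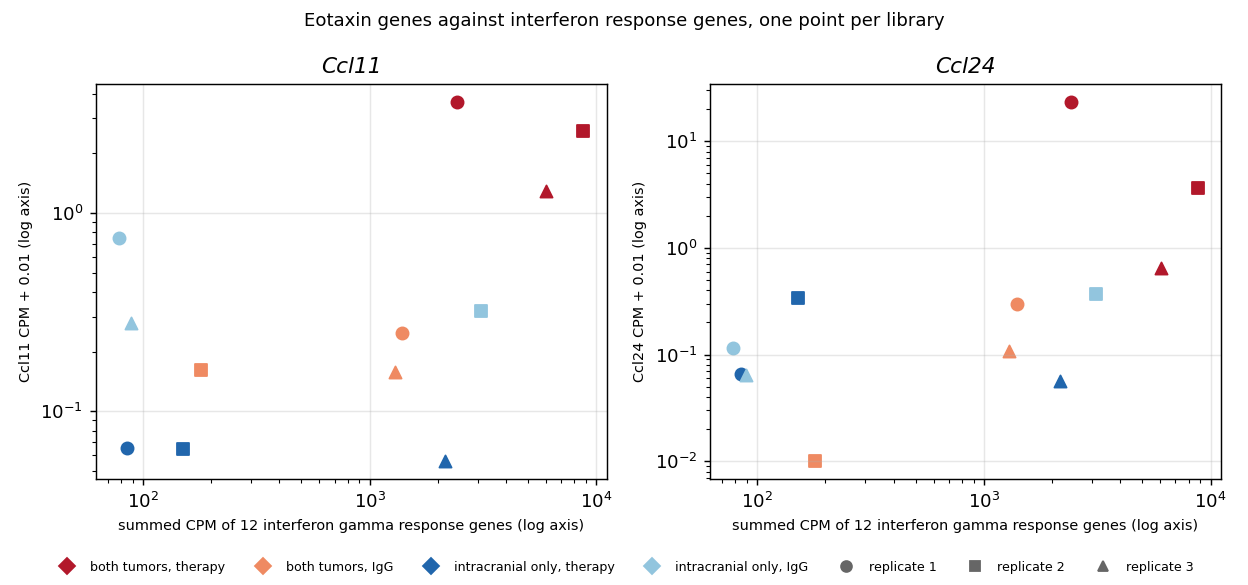
CPM of Ccl11 (left) and Ccl24 (right), plus 0.01, against the summed CPM of 12 interferon gamma response genes, both on log axes, 1 point per library. Color gives the group and shape the replicate number. Both tumors with therapy replicate 1 (2421 CPM) lies near intracranial only with therapy replicate 3 (2159 CPM) and intracranial only with IgG replicate 2 (3113 CPM) on the x axis, and above both on the y axis of each panel.

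The genes whose log2 CPM followed Ccl11 most closely over the 12 libraries, among 12943 genes with a mean of at least 1 CPM, included Clmp (r = 0.902), Slc7a2 (0.900), Pon2 (0.898), Adora2a (0.898) and Coq10b (0.896). Those nearest to Ccl24 were F7 (r = 0.898), Aass (0.874), Irak3 (0.851), Hbp1 (0.850), Anpep (0.850) and Slc7a2 (0.850). These are Pearson correlations given as a description, and all points share the groups and the tissue makeup described above. Slc7a2, a transporter of cationic amino acids, stood in both sets, at 20.8 ± 4.57 CPM in both tumors with therapy (SD, n = 3) and no more than 5.83 CPM in any other library. F7, which encodes coagulation factor VII, reached 7.86 ± 4.15 CPM in both tumors with therapy (SD, n = 3) and at most 1.82 CPM elsewhere. All these correlations were lower without the libraries of both tumors with therapy. With Ccl11 they were then 0.787 for Clmp, 0.764 for Adora2a, 0.737 for Pon2, 0.652 for Coq10b and 0.476 for Slc7a2. With Ccl24 they were 0.736 for Anpep, 0.643 for Irak3, 0.596 for Aass, 0.516 for Slc7a2, 0.448 for Hbp1 and 0.447 for F7.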

How the data were processed

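A count table and an FPKM table of the whole series were used. Counts are unnormalized reads per gene, as deposited. The submitters' processing notes name TopHat2 2.0.12, Bowtie2 2.2.3, HTSeq 0.6.1 and the builds GRCm38 and mm10. The FPKM table deposited by the authors equals count over gene length and library total for the 16062 genes with reads in every library. The labels do not say whether counting used strand. Symbols and coordinates come from GENCODE M21 (GRCm38), and coding sequences were read from its genome; 46488 of 47069 identifiers matched a symbol.

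Counts were tested with edgeR 4.0.16 (R 4.3.3): TMM factors, filterByExpr (minimum count 10, minimum total 15; 15925 genes kept), 4 group means over 12 libraries, quasi-likelihood F test, and Benjamini-Hochberg adjustment with a threshold of 0.05. The edgeR test planned for the described genes with the intracranial tumor only is not used, because they pass the filter only through the mice with both tumors and therapy. Of the list genes, Siglecf, Il1rl1 and Pdcd1lg2 also pass only through those mice, and their p-values are a description. Ccl17, which was not called, also needs libraries of those mice to pass. The SE of a log2 fold change is its size over the square root of F. log2 CPM used a prior count of 2. Count ratios have exact 95% intervals, and intervals and floors of 3 reads cover counting error only. The script was tested on simulated data. DESeq2 1.42.0, limma 3.58.1 on log2(FPKM + 1) and log2(FPKM + 0.1), RLE factors, no filter, a fit of only the groups compared, and leaving out each library were alternatives.

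The genes described and the 21 gene lists were chosen with earlier results of these data known. Named genes were the 3 described genes, the 6 genes most correlated with each eotaxin (mean of at least 1 CPM), and of each list up to 4 called members or else up to 3 with the highest mean; all CCR3 ligand, cluster, receptor and eosinophil genes could be named. Exceptions are marked; a few genes it takes in are not reported here.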

Additional observations from a re-analysis of the deposited data

Results flagged for a closer look

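The difference between the therapy effects with both tumors and with the intracranial tumor only drew attention for 12 genes. For Ccl11 it was 6.69 on the log2 scale and was not tested, because its libraries chose the gene. Its therapy libraries all lay above the IgG libraries with both tumors and below them with the intracranial tumor only. For the other 11 genes the interaction term of edgeR passed an adjusted p of 0.05. Siglecf passed the filter on low counts only through both tumors with therapy, so its call is a description. These differences were 5.61 for the eosinophil gene Siglecf, 5.21 for the chemokine-binding receptor gene Ackr1, 2.19 for the cytokine receptor gene Crlf2, 4.63 for the macrophage gene Arg1 and 1.44 for the inflammatory signal gene Nfkbia. Among genes of blood vessels and stroma they were 1.11 for Pecam1, 3.59 for Cldn5, 1.23 for Esam, 3.47 for Ly6c1 and 2.93 for Pdgfra, and for Foxj1, a gene of ciliated ependymal cells, 2.47. The calls of these 11 genes were made under 4 (Arg1), 5 (Nfkbia and Esam), 7 (Foxj1), 8 (Ly6c1) or 9 (the others) of 17 alternatives, and each was lost when any 1 of at least 8 of the 12 libraries was left out. The interaction was called for 22% of all genes tested and for all 8 neuron, 7 of 8 microglia and 7 of 8 oligodendrocyte genes.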

How the results depend on the processing

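With few reads, the fold changes of the eotaxin genes depended on the pseudocount and on single libraries, but the higher levels in both tumors with therapy kept their direction in every alternative run. On log2(FPKM + 1) and log2(FPKM + 0.1), scales on which low genes have smaller fold changes by construction, Ccl11 had 1.47 and 3.10 for therapy with both tumors, 1.63 and 3.95 for both tumors under therapy and 1.88 and 4.79 for the interaction, and -0.26 on the first scale for both tumors under IgG. Ccl24 had 2.43, 2.43 and 2.48 on the first scale for the same 3 comparisons and 4.65 for the interaction on the second. Ccr3 had 0.21, 0.26 and 0.24 on the first, -0.03 for therapy with the intracranial tumor only, and 1.40 and 1.23 on the second for both tumors under therapy and the interaction. With no filter Ccr3 had 2.44, -3.59, 6.72 and 6.03 for therapy with both tumors, therapy with the intracranial tumor only, both tumors under therapy and the interaction, and with DESeq2 2.52, -2.87, 6.13 and 5.39.

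Leaving out 1 library at a time, Ccl24 ran from 3.97 to 7.36 for therapy with both tumors, 3.84 to 7.34 for both tumors under therapy and 4.27 to 7.77 for the interaction. It changed sign for therapy with the intracranial tumor only, from -1.67 to 0.77, and for both tumors under IgG, from -1.68 to 0.67. In these last comparisons Ccl11 ran from -3.19 to -2.35 and from -1.51 to -0.66, and for the interaction from 6.09 to 7.0. For therapy with the intracranial tumor only its value without both tumors with IgG replicate 2 was -2.94, the same as in the full fit. The cause of the changes with single libraries was not tested.

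Counts of called genes moved most. Therapy with both tumors gave 0 genes with RLE factors, 0 with no filter, 0 in a fit of only the groups compared, 3139 with DESeq2, 2630 and 1759 on the FPKM scales and 0 to 2394 with a library left out. Therapy with the intracranial tumor only gave 839 in a fit of only the groups compared, 1038 with DESeq2 and 0 to 1002 with a library left out. Both tumors under therapy gave 4710 to 8128 and the interaction 0 to 4367 with a library left out. In a fit of only the intracranial-only groups no described gene passed the filter. No paired analysis was possible because the labels give no replicate numbers. Read counts under about 10 limit every statement on Ccr3 and on groups other than both tumors with therapy.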

Other observations

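Perivascular and border macrophages, which sit along vessels and in the membranes around the brain, were followed with 10 genes, all of which were tested. None was called for therapy against IgG with both tumors, where 5 of 10 had a log2 fold change above 0 and the median was 0.19. Between both tumors and intracranial only under therapy 1 was called: Cbr2, a carbonyl reductase gene, fell by 1.62 ± 0.61 on the log2 scale (edgeR adjusted p = 0.0494). That is 1 of 10, in a comparison where 45.4% of all genes tested were called, and the Cbr2 call was made under 7 of 18 alternatives (adjusted p up to 0.123). The summed level of these genes was 89.5, 85.2 and 135 CPM in both tumors with therapy, 67.3, 67.9 and 44.8 CPM in both tumors with IgG, 52.5, 94.5 and 99.3 CPM in intracranial only with therapy and 55.2, 111 and 39.4 CPM in intracranial only with IgG.

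The choroid plexus is a known place of Ccl11 transcription in brain. Its list held 7 genes, of which 3 were tested. Ttr, the transthyretin gene, had 99, 84 and 90 reads in both tumors with therapy, against 112, 95 and 89 in both tumors with IgG (log2 fold change -0.19 ± 0.24, edgeR adjusted p = 0.587). It had 96, 97 and 77 reads in intracranial only with therapy, against 146, 136 and 95 in intracranial only with IgG. Kcnj13, a potassium channel gene and the most abundant of the list in these libraries, had 3036, 4026 and 4202 reads in both tumors with therapy, 387, 245 and 797 in intracranial only with therapy, 1780, 150 and 1849 in both tumors with IgG and 506, 1161 and 1122 in intracranial only with IgG. Between both tumors and intracranial only under therapy it rose by 2.89 ± 0.74 (edgeR adjusted p = 0.0109), and Foxj1, a gene of ciliated cells, rose by 2.41 ± 0.52 (edgeR adjusted p = 0.0057). Neither was called for therapy against IgG with both tumors (1.53 ± 0.71, edgeR adjusted p = 0.157 for Kcnj13 and 1.60 ± 0.50, edgeR adjusted p = 0.0691 for Foxj1). Otx2 had at most 2 reads in a library and Folr1 at most 4.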
